A study of Mus musculus with 6 samples.

Results

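The S100 genes encode small calcium-binding proteins, and 8 of them (S100a1, S100a4, S100a6, S100a8, S100a9, S100a10, S100a11 and S100a13) were followed here among the 34199 gene symbols of the count files. They were chosen by symbol, with earlier results of these data known. Expression was measured by bulk RNA-seq in HOXA9-immortalized granulocyte-macrophage progenitors (iGMPs), mouse C57Bl/6 bone marrow cells that carry a lysozyme-GFP reporter and are kept self-renewing by HOXA9 fused to an estrogen receptor domain. All 3 groups were cultured with stem cell factor and harvested at 24 h, with 2 libraries per group. CAF-1 OFF cells received 500 µM IPTG to express an shRNA that targets Chaf1b, the gene of a component of CAF-1, a chaperone that deposits histones behind the replication fork, and control cells received the same IPTG. Both were held in 150 ng/ml estradiol. HOXA9 OFF cells were washed free of estradiol, which inactivates the fusion protein and starts normal myeloid differentiation, and whether they received IPTG was not stated. Inducible hairpin and control lines were clonal in the study, and the labels do not say which clones or how many separate cultures these libraries came from, so p-values measure only the spread between these libraries.

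S100 proteins mostly work as pairs of subunits that bind target proteins when calcium rises, through a pair of EF-hand loops in each subunit. S100A8 and S100A9 join into calprotectin, an abundant cytosolic protein of neutrophils and monocytes that binds zinc and manganese and, once released, acts on receptors such as TLR4 and RAGE. S100A10 is the exception of the family, as it no longer binds calcium and is held in a complex with annexin A2.

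The libraries held between 16773560 and 25170898 counts assigned to genes, so that 3 counts corresponded to between 0.118 and 0.182 CPM (counts scaled to a common library size, with TMM factors). Intervals and floors cover counting error only, since reads copied by PCR are not independent molecules. The targeted gene Chaf1b stood at 17.8 and 12.1 CPM in CAF-1 OFF against 90.0 and 105.1 CPM in control, as the labels imply. HOXA9 OFF lay between them, at 64.6 and 61.4 CPM, so Chaf1b was below control there too. Of 10 granulocyte-macrophage progenitor markers, 10 were detected in control, led by the myeloperoxidase gene Mpo at 6437 and 4109 CPM. The T cell receptor chain genes Cd3e and Cd3g had no count in any library. No library pair of a group agreed within sampling noise, with a chi-square statistic of at least 22.1 per degree of freedom. Among the 8 S100 genes, the HOXA9 OFF libraries differed from each other most in S100a4, S100a8 and S100a9, and results are given with each library left out wherever that changed a call.

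All 8 genes lie on mouse chromosome 3 (NCBIM37 annotation) in 2 groups. S100a1 (chr3:90314956-90318314, minus strand) and S100a13 (chr3:90318357-90328503, plus strand) start back to back with 42 bp between them. They are followed by S100a4 (chr3:90407692-90409967), S100a6 (chr3:90416816-90418336), S100a8 (chr3:90472993-90473956) and, on the minus strand, S100a9 (chr3:90496554-90499643). S100a11 (chr3:93324410-93330209) and S100a10 (chr3:93359002-93368565) form a separate pair. No annotated gene overlaps any of the 8.

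Of the other S100 genes, 8 of 10 listed were in the files and none had more than 3 counts in any library. These were S100a3, S100a5, S100a7a, S100a14, S100a16, S100b, S100g and S100z, and 5 of them had no count at all. S100a3 and S100a5, whose gene bodies lie on either side of S100a4, were at this floor in every group. All 8 of the genes followed here passed the expression filter that left 12460 genes for testing.

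Each induced state was compared with control, which both comparisons share, to see what either did to the S100 genes, and the induced states were then compared directly. After HOXA9 inactivation, 6 of the 8 genes rose, and none fell. The increases spanned S100a8 at 93.4-fold to S100a13 at 1.85-fold. Since these are bulk samples, fewer cells of a type and less RNA per cell cannot be told apart in any of these values. Among all 12460 genes, 22% were called in this comparison, 13% higher and 8.97% lower. A call required a 1.5-fold difference with an FDR (the Benjamini-Hochberg adjusted p of the edgeR quasi-likelihood test) below 0.05. The median log2 fold change was 1.496 over the 8 genes and -0.0035 over all genes tested. In CAF-1 OFF against control, 0 of the 8 genes passed with the edgeR quasi-likelihood test, where 0.0321% of all genes did (0.0241% higher and 0.00803% lower). An unadjusted p under 0.05 was reached by 2 of them, S100a8 and S100a9, against 10.7% of all genes. The DESeq2 Wald test and the edgeR exact test each called these 2 genes higher in CAF-1 OFF, out of 1.63% and 1.89% of all genes called by these tests. Between the induced states, 5 of 8 genes were lower in CAF-1 OFF, where 22.1% of all genes were called (12.6% lower and 9.56% higher). The median log2 fold change of the 8 genes was 0.19 in CAF-1 OFF against control and -1.23 between the induced states, and the medians of all genes were -0.0044 and 0.00075.

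**Figure D1:**
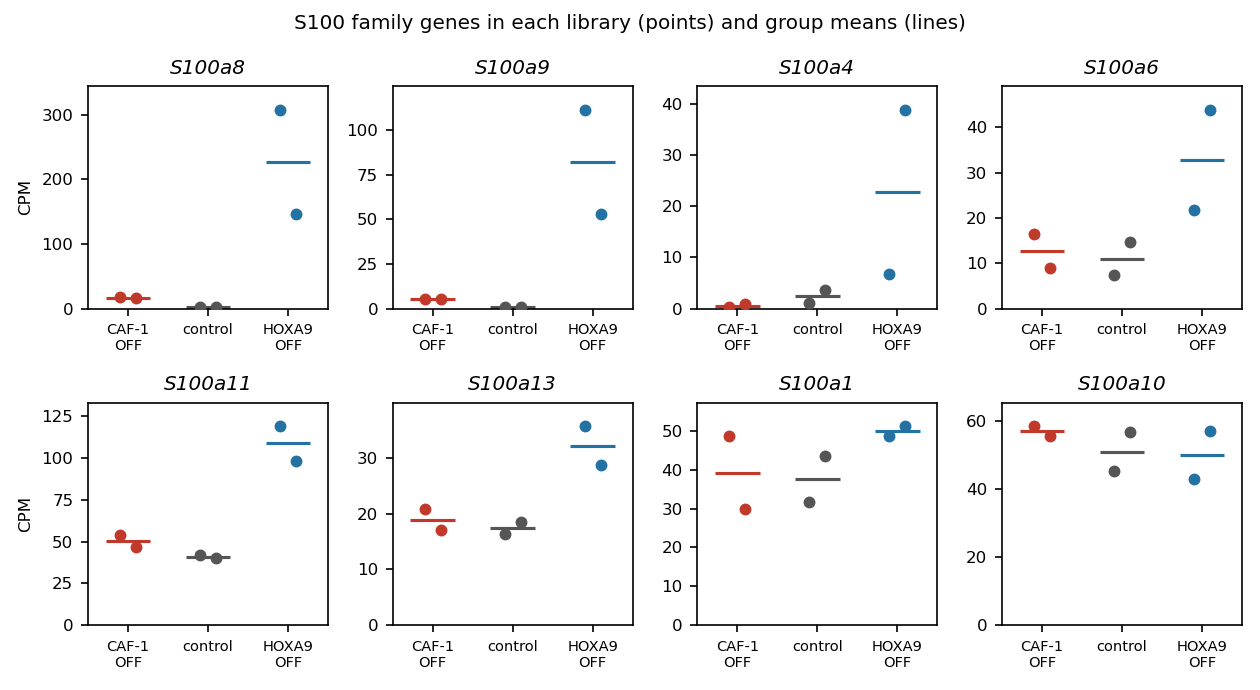
Level of each S100 gene in CPM (vertical axes, each from 0) in the 2 libraries of CAF-1 OFF, control and HOXA9 OFF (points), with the group mean as a line. S100a8 and S100a9 in HOXA9 OFF lie above all other libraries although the 2 HOXA9 OFF libraries differ from each other, and S100a10 overlaps between all groups.

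S100a8 encodes the smaller subunit of calprotectin. It had 64 and 40 counts in control, 335 and 328 in CAF-1 OFF, and 6378 and 2424 in HOXA9 OFF. On the CPM scale these were 2.51 and 2.32 in control, 17.4 and 16.6 in CAF-1 OFF, and 308 and 147 in HOXA9 OFF. The groups did not overlap, and HOXA9 OFF showed the widest spread. S100a8 rose in HOXA9 OFF by 6.55 ± 0.41 on the log2 scale (± SE, edgeR FDR 0.000322). In CAF-1 OFF the log2 fold change against control was 2.80 ± 0.39, or 6.99-fold (edgeR FDR 0.0976). Both CAF-1 OFF libraries were above both controls, and the difference did not pass the threshold in the fit to all 6 libraries. Against HOXA9 OFF, S100a8 was lower in CAF-1 OFF by 13.4-fold (log2 fold change -3.74 ± 0.34, edgeR FDR 0.000982). The CAF-1 OFF call changed with the libraries, the test and the filter. With a fit to the 4 libraries compared the edgeR FDR was 0.0185, and it was 0.0065 without HOXA9 OFF replicate 1 and 0.00446 without HOXA9 OFF replicate 2. With all 6 libraries, the FDR was 1.14e-13 by the DESeq2 Wald test, 4.71e-11 by the edgeR exact test and 1.73e-13 by the edgeR quasi-likelihood test with no filter. Without any one of the CAF-1 OFF or control libraries, the edgeR FDR ran from 0.186 to 0.595 and the difference was not called. Without HOXA9 OFF replicate 1, the log2 fold change of S100a8 was 5.91 in HOXA9 OFF against control and -3.10 between the induced states, and both stayed called.

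S100a9, the larger subunit, ran in parallel at lower counts. It had 26 and 16 counts in control, 108 and 104 in CAF-1 OFF, and 2309 and 877 in HOXA9 OFF. The corresponding levels were 1.02 and 0.929 CPM, 5.61 and 5.27 CPM, and 111 and 53.2 CPM. Again the groups did not overlap. In HOXA9 OFF, S100a9 rose 83.4-fold (log2 fold change 6.38 ± 0.43, edgeR FDR 0.000433). In CAF-1 OFF the log2 fold change was 2.46 ± 0.44 against control (edgeR FDR 0.153) and -3.92 ± 0.36 against HOXA9 OFF (edgeR FDR 0.000982). With all 6 libraries, the FDR against control was 8.03e-07 by the DESeq2 Wald test and 3.69e-06 by the edgeR exact test. It was 2.27e-08 by the edgeR quasi-likelihood test with no filter. The CAF-1 OFF comparison of S100a9 passed when HOXA9 OFF replicate 1 (edgeR FDR 0.0313) or replicate 2 (edgeR FDR 0.0152) was left out of the fit, but not in the fit to the 4 libraries compared (edgeR FDR 0.112). Without HOXA9 OFF replicate 1, the log2 fold change was 5.75 in HOXA9 OFF against control and -3.28 between the induced states. In CAF-1 OFF against control it ran from 2.41 to 2.54 without any one of the CAF-1 OFF or control libraries, and was not called.

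The proportion of both calprotectin transcripts can be read within a library, free of scaling. S100a9 counts per S100a8 count were 0.406 and 0.400 in control, 0.322 and 0.317 in CAF-1 OFF, and 0.362 and 0.362 in HOXA9 OFF. The HOXA9 OFF libraries thus had the same ratio to 3 digits, although the level of each gene in replicate 2 was under 0.48 times that in replicate 1. As a share of the pair, S100a9 took 26.6% in both HOXA9 OFF libraries (95% exact binomial intervals 25.65 to 27.5 and 25.1 to 28.1). In control the intervals ran from 19.8 to 39.4 and from 17.3 to 42.2, and in CAF-1 OFF from 20.45 to 28.65 and from 20.1 to 28.4. The intervals of all groups overlapped, so a difference in this share was not detectable at this depth. An exact two-sided permutation test of 2 libraries against 2 cannot go below p = 0.333.

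Promoter sequences of the genes with the 3 largest increases in HOXA9 OFF are shown to set their start regions side by side. Each is the 250 bases before the annotated gene start, read from the NCBIM37 genome on the strand of the gene, 5′ to 3′. The windows are chr3:90472743-90472992 (plus strand) for S100a8, chr3:90499644-90499893 (minus strand) for S100a9 and chr3:90407442-90407691 (plus strand) for S100a4. Capitals mark matches to 4 motifs searched on both strands. TTGCNNAA stands for C/EBP factors, and AGGAAGT stands for ETS factors including PU.1. TGANTCA stands for AP-1, and TATAAA is the TATA box. No matches overlap in these windows.
S100a8: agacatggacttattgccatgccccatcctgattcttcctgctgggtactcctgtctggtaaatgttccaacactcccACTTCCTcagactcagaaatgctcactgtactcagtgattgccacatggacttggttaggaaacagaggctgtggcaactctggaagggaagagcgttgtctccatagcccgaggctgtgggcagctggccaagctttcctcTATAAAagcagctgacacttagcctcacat
S100a9: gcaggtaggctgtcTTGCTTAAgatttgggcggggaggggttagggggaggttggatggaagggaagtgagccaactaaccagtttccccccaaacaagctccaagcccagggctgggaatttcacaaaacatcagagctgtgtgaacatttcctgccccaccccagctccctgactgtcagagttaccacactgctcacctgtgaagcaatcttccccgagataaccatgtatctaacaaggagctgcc
S100a4: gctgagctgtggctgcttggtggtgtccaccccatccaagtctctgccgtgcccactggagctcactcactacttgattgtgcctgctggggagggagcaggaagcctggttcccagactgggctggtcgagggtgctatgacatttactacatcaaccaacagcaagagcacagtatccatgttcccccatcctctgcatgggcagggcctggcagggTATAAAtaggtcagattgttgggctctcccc
S100a8 and S100a4 held a TATAAA that began 30 and 31 bases before the start. In addition, S100a8 held an AGGAAGT match on the other strand, from 172 to 166 bases before the start, and S100a9 held 1 TTGCNNAA match, from 236 to 229 bases before it. S100a11 had TGAGTCA at 2 places, and the windows of S100a1, S100a6, S100a10 and S100a13 held none of the 4 motifs. Among 22375 promoters of protein-coding genes, the C/EBP motif occurred in 9.16%, the ETS motif in 7.2%, the AP-1 motif in 6% and the TATA box in 12.3%. Such matches describe letters and were not tested as binding sites. For 5 of the 8 genes, the first 250 bases of a RefSeq promoter (GRCm38.p6) were identical to the window used here.

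S100a4, a metastasis-associated S100 protein that binds non-muscle myosin heavy chain, was the least expressed of the 8 genes per kilobase in CAF-1 OFF and the most variable between libraries. It had 28 and 62 counts in control, 7 and 16 in CAF-1 OFF, and 141 and 640 in HOXA9 OFF. These were 1.10 and 3.599 CPM, 0.364 and 0.810 CPM, and 6.80 and 38.8 CPM. Although the second library was 2.23 to 5.70 times the first in every group, the groups did not overlap. In HOXA9 OFF, S100a4 rose 9.93-fold (log2 fold change 3.31 ± 0.90, edgeR FDR 0.0333). In CAF-1 OFF its log2 fold change was -1.94 ± 1.07 against control (edgeR FDR 0.574). That value was -0.89 without control replicate 2, -2.60 without control replicate 1 and -2.61 without CAF-1 OFF replicate 2. Only the fit with no filter called it lower there (edgeR FDR 0.0254). Between the induced states, S100a4 was lower in CAF-1 OFF by 38.2-fold (log2 fold change -5.26 ± 1.05, edgeR FDR 0.0121). The increase in HOXA9 OFF was not called without control replicate 1 (log2 fold change 2.65, edgeR FDR 0.132), without control replicate 2 (4.36, edgeR FDR 0.0583) or without HOXA9 OFF replicate 2 (1.56, edgeR FDR 0.183). The difference between the induced states was not called without CAF-1 OFF replicate 1 (-4.80, edgeR FDR 0.0623). It stayed called at -5.92 without CAF-1 OFF replicate 2, at -6.02 without HOXA9 OFF replicate 1 and at -3.52 without HOXA9 OFF replicate 2. The increase in HOXA9 OFF was 4.08 without HOXA9 OFF replicate 1 and stayed called.

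S100a6, or calcyclin, binds CACYBP and several annexins and is known to rise in cells that enter the cell cycle. It stood at 7.38 and 14.6 CPM in control, 16.5 and 9.01 CPM in CAF-1 OFF, and 21.7 and 43.8 CPM in HOXA9 OFF. HOXA9 OFF lay above the other groups, which overlapped. In HOXA9 OFF, S100a6 rose 2.99-fold (log2 fold change 1.58 ± 0.47, edgeR FDR 0.045), close to the threshold. The call was lost without either control library (edgeR FDR 0.179 and 0.0526), without HOXA9 OFF replicate 2 (log2 fold change 0.99, edgeR FDR 0.203), with library size alone (0.0523) and with the replicate number as a block (0.0569). In CAF-1 OFF the log2 fold change was 0.23 ± 0.47 against control (edgeR FDR 0.906) and -1.36 ± 0.47 against HOXA9 OFF (edgeR FDR 0.069). The latter was called by the DESeq2 Wald test (FDR 0.00976), the edgeR exact test (FDR 0.0217) and the edgeR quasi-likelihood test with no filter (FDR 5.03e-05), and it was -0.77 without HOXA9 OFF replicate 2 (edgeR FDR 0.316).

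**Figure D2:**
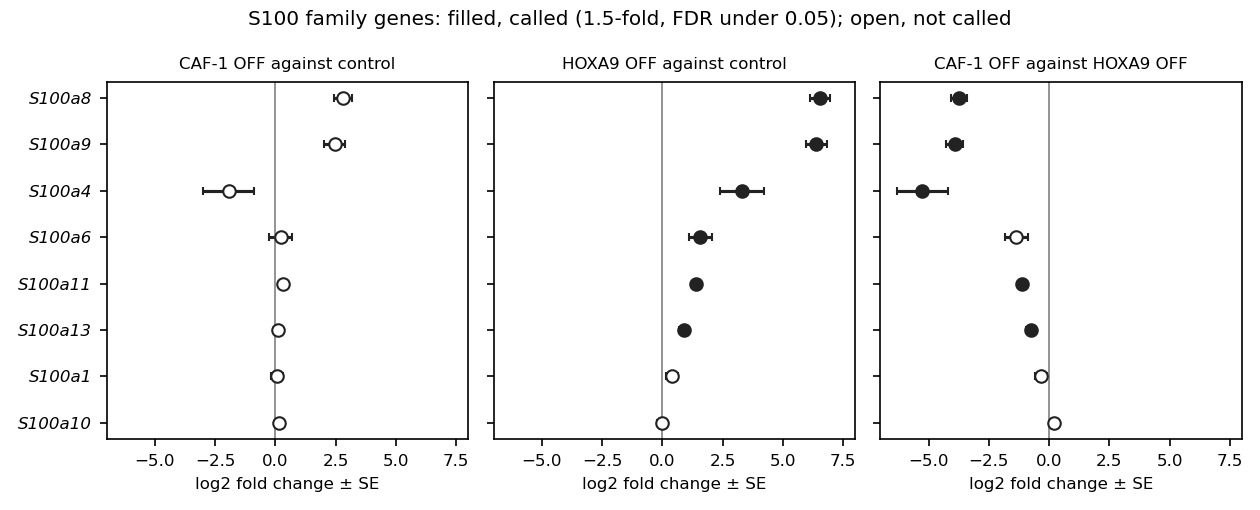
Log2 fold change (horizontal axes) of each S100 gene in the 3 comparisons, with its SE as a bar where wider than the symbol. Filled symbols mark calls at 1.5-fold and an FDR under 0.05 by the edgeR quasi-likelihood test, which number 0, 6 and 5 from left to right.

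S100a11, or calgizzarin, pairs with annexin A1 in membrane repair and traffic. It had a narrow spread, with 42.0 and 39.9 CPM in control, 54.0 and 46.8 CPM in CAF-1 OFF, and 119 and 98.6 CPM in HOXA9 OFF. The 3 groups did not overlap. In HOXA9 OFF, S100a11 rose 2.66-fold (log2 fold change 1.41 ± 0.14, edgeR FDR 0.00115). In CAF-1 OFF its log2 fold change against control was 0.30 ± 0.14 (edgeR FDR 0.496), and it was lower than in HOXA9 OFF by 2.16-fold (log2 fold change -1.11 ± 0.14, edgeR FDR 0.00242). S100a8, S100a9 and S100a11 were called in HOXA9 OFF against control under every one of 14 alternative analyses and at the stricter cutoff of 2-fold and an FDR under 0.01.

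S100a13 takes part in the release of FGF1 and interleukin-1α, which lack a signal peptide. It stood at 16.3 and 18.5 CPM in control, 20.9 and 17.0 CPM in CAF-1 OFF, and 35.7 and 28.7 CPM in HOXA9 OFF. In HOXA9 OFF, S100a13 rose 1.85-fold (log2 fold change 0.89 ± 0.18, edgeR FDR 0.0114), with no overlap of the groups. In CAF-1 OFF it overlapped control (log2 fold change 0.12 ± 0.18, edgeR FDR 0.852) and was lower than in HOXA9 OFF by 1.70-fold (log2 fold change -0.77 ± 0.18, edgeR FDR 0.0193). The increase in HOXA9 OFF was not called without control replicate 1 (edgeR FDR 0.0729) or HOXA9 OFF replicate 1 (edgeR FDR 0.0808), and the difference between the induced states was not called without CAF-1 OFF replicate 2 (edgeR FDR 0.0715) or HOXA9 OFF replicate 1 (edgeR FDR 0.13).

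S100a1, best known as a regulator of calcium cycling in muscle, starts 42 bp from S100a13 on the other strand. It stood at 31.8 and 43.6 CPM in control, 48.6 and 29.8 CPM in CAF-1 OFF, and 48.7 and 51.2 CPM in HOXA9 OFF. It was not called in any comparison. Against control, the log2 fold change was 0.06 ± 0.25 in CAF-1 OFF (edgeR FDR 0.958) and 0.41 ± 0.25 in HOXA9 OFF (edgeR FDR 0.26). S100a10, the annexin A2 partner, was also not called in any comparison. S100a10 stood at 45.3 and 56.7 CPM in control, 58.5 and 55.8 CPM in CAF-1 OFF, and 42.9 and 57.0 CPM in HOXA9 OFF, so that all groups overlapped. Its log2 fold change was 0.16 ± 0.17 in CAF-1 OFF (edgeR FDR 0.785) and -0.03 ± 0.17 in HOXA9 OFF (edgeR FDR 0.919).

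Groups that do not overlap are common with 2 libraries each. CAF-1 OFF and control did not overlap for 4 of the 8 genes (S100a8, S100a9 and S100a11 higher, S100a4 lower). Among all genes, 40.1% did not overlap there, and 20.1% were higher without overlap. HOXA9 OFF and control did not overlap for 7 of the 8, all higher, where 71% of all genes did not overlap and 35.1% were higher without overlap. CAF-1 OFF and HOXA9 OFF did not overlap for 7 of the 8, all lower in CAF-1 OFF. Among all genes, 66.7% did not overlap there, 33% being higher in CAF-1 OFF and the rest lower.

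Levels of different genes were compared as CPM per kilobase of annotated exon. In control the order was S100a11 (80.2 ± 2.84, SD, n = 2), S100a1 (54.3 ± 12.0), S100a10 (42.1 ± 6.64), S100a13 (24.3 ± 2.10), S100a6 (15.3 ± 7.12), S100a8 (6.17 ± 0.35), S100a4 (4.003 ± 3.01) and S100a9 (1.87 ± 0.13). Neighbors in this order did not differ beyond the range of their libraries for S100a1 and S100a10, for S100a8 and S100a4, and for S100a4 and S100a9. In CAF-1 OFF, S100a11 remained first at 98.7 ± 9.96, S100a8 reached 43.4 ± 1.44, S100a9 reached 10.4 ± 0.47 and S100a4 was last at 1.00 ± 0.54. In HOXA9 OFF, S100a8 came first at 580 ± 290, followed by S100a11 at 213 ± 28.4 and S100a9 at 158 ± 78.9, of which S100a11 and S100a9 overlapped. S100a6, S100a13, S100a10 and S100a4 came last there, between 45.6 and 38.8, and S100a13, S100a10 and S100a4 each overlapped the gene above, while S100a6 did not overlap S100a1.

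The 8 genes together took 147 and 180 CPM in control, 222 and 181 CPM in CAF-1 OFF, and 694 and 518 CPM in HOXA9 OFF. Both CAF-1 OFF libraries thus lay above both controls, the lower of them only just, and both HOXA9 OFF libraries lay above all of these. S100a8 and S100a9 supplied 2.40% and 1.80% of the S100 counts in control, 10.4% and 12.1% in CAF-1 OFF, and 60.4% and 38.6% in HOXA9 OFF (95% exact binomial intervals 1.93 to 2.94, 1.37 to 2.34, 9.47 to 11.3, 11.03 to 13.2, 59.6 to 61.2 and 37.6 to 39.65, in the same order). The intervals of the 3 groups did not overlap. Those of the 2 HOXA9 OFF libraries did not overlap either, so these intervals do not measure the spread between libraries.

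**Figure D3:**
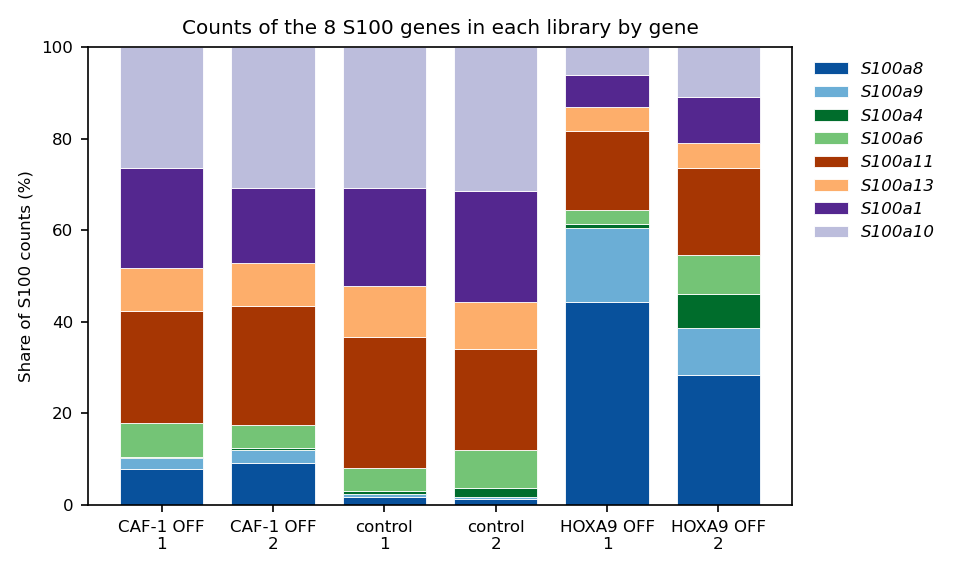
Share of the counts of the 8 S100 genes that each gene supplied (vertical axis, percent), for each library. S100a8 and S100a9 (blue, at the base) supplied 1.80% to 2.40% in control, 10.4% to 12.1% in CAF-1 OFF and 38.6% to 60.4% in HOXA9 OFF.

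The HOXA9 OFF libraries differed from each other in opposite directions for different S100 genes. Replicate 2 had 0.478 times the S100a8 level and 0.477 times the S100a9 level of replicate 1, yet 5.7 times the S100a4 level and 2.02 times the S100a6 level. Over 12371 genes the middle 90% of such ratios ran from 0.656 to 1.87. Of 9 tested genes of abundant neutrophil proteins, 8 were lower in replicate 2, as were 9 of 10 progenitor genes (ratios from 0.553 to 1.05). Over all 12371 genes, 6090 were lower and 6281 higher in replicate 2. The neutrophil ratios ran from 0.441 for the gelatinase gene Mmp9 to 1.09 for the collagenase gene Mmp8. Monocyte and macrophage genes varied more widely, with 4 of 7 higher in replicate 2 and ratios from 0.492 for Cx3cr1 to 3.15 for the chemokine receptor gene Ccr2. On the summed level, the neutrophil list ran from 1850 to 3263 CPM in HOXA9 OFF, 105 to 125 CPM in control and 459 to 742 CPM in CAF-1 OFF. Single genes carried most of these sums, with Chi3l3 at 2835 and 1569 CPM in HOXA9 OFF and Mmp8 at 332 and 630 CPM in CAF-1 OFF. The monocyte and macrophage list ran from 1663 to 2729 CPM in HOXA9 OFF, 1416 to 1597 CPM in control and 1469 to 1755 CPM in CAF-1 OFF. Of its 7 tested genes, 5 rose and 1 fell in HOXA9 OFF, where 13% of all genes were called higher and 8.97% lower, with a median log2 fold change of 1.57. The macrophage colony-stimulating factor receptor gene Csf1r rose from 4.05 and 4.24 CPM in control to 215 and 292 CPM (log2 fold change 5.94, edgeR FDR 0.000103), while Ccr2 fell (log2 fold change -1.67, edgeR FDR 0.0469). The part of these cell types in the S100 values was not tested.

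**Figure D4:**
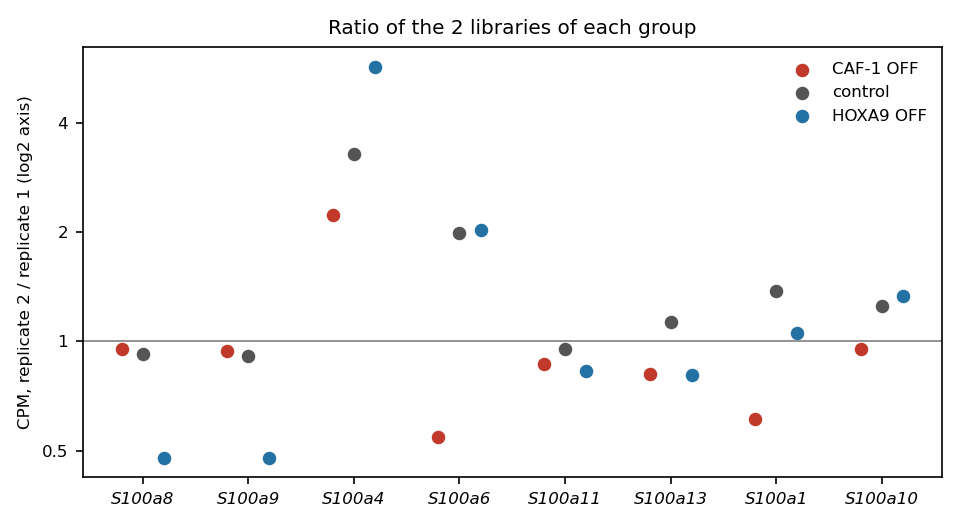
Ratio of the CPM of replicate 2 to that of replicate 1 (vertical axis, log2 scale) for each S100 gene in CAF-1 OFF, control and HOXA9 OFF. In HOXA9 OFF, S100a8 and S100a9 lie near 0.48 while S100a4 reaches 5.7, and S100a4 is above 1 in all 3 groups.

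Other genes of abundant neutrophil proteins gave a reference for calprotectin. Of 9 genes tested, 8 rose in HOXA9 OFF, where 13% of all genes were called higher, with a median log2 fold change of 2.81. The largest were the chitinase-like gene Chi3l3 (7.65), the cathelicidin gene Camp (6.25, edgeR FDR 0.000561) and the lactotransferrin gene Ltf (6.13, edgeR FDR 0.00114). S100a8 and S100a9 lay within this range. In CAF-1 OFF against control, 0 of 9 passed the edgeR test, where 0.0321% of all genes did, and the median log2 fold change was 0.98. All 9 had a positive log2 fold change. In CAF-1 OFF, Chi3l3 was at 46.4 and 63.6 CPM against 15.8 and 5.63 CPM in control (log2 fold change 2.33, edgeR FDR 0.195). Camp was at 0.572 and 0.911 CPM against 0.393 and 0.348 CPM in control, and Ltf at 1.30 and 0.557 CPM against 0.471 and 0.174 CPM. Between the induced states, 7 of 9 were lower in CAF-1 OFF and 1 was higher, where 12.6% of all genes were called lower and 9.56% higher. The higher gene was Mmp8, named after its values were seen, at 70.1 and 40.5 CPM in control, 332 and 630 CPM in CAF-1 OFF, and 56.6 and 62.0 CPM in HOXA9 OFF (log2 fold change between the induced states 3.02, edgeR FDR 0.0023).

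Among 14 tested genes of S100 binding partners and receptors, 6 rose in HOXA9 OFF and none fell, where 13% of all genes were called higher and 8.97% lower, and the median log2 fold change was 0.39. Ahnak, a giant scaffold protein that S100A10 and annexin A2 bind, rose from 2.71 and 2.73 CPM in control to 45.0 and 82.4 CPM (log2 fold change 4.55, edgeR FDR 0.000475). Anxa1, the S100A11 partner, rose from 141 and 113 CPM to 940 and 762 CPM (log2 fold change 2.74, edgeR FDR 0.000475). The S100A4 target Myh9 (1.10), the annexin genes Anxa11 (0.72) and Anxa6 (0.68), and the TLR adaptor gene Myd88 (0.96) made up the others. The receptor genes of calprotectin were not called against control, as Tlr4 had a log2 fold change of 0.20 (edgeR FDR 0.587) and Ager, which encodes RAGE, of 0.58 (edgeR FDR 0.189) in HOXA9 OFF. None of the 14 was called in CAF-1 OFF against control by edgeR, and Anxa1 came closest at 415 and 316 CPM (log2 fold change 1.52, edgeR FDR 0.0865). Between the induced states, 7 of the 14 were lower in CAF-1 OFF and none was higher, where 12.6% of all genes were called lower.

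Counts of S100a11 and S100a10 were also set against those of Anxa1 and Anxa2. S100a11 counts per Anxa1 count were 0.298 and 0.352 in control, 0.130 and 0.148 in CAF-1 OFF, and 0.127 and 0.129 in HOXA9 OFF. Both induced states lay below control and lay close to each other, although S100a11 was called higher only in HOXA9 OFF. The log2 fold change of Anxa1 against control was 1.52 in CAF-1 OFF (not called) and 2.74 in HOXA9 OFF. Those of S100a11 were smaller, at 0.30 and 1.41. S100a10 counts per Anxa2 count were 0.204 and 0.164 in control, 0.232 and 0.255 in CAF-1 OFF, and 0.245 and 0.235 in HOXA9 OFF. Anxa2 itself was not called, with log2 fold changes of -0.27 in CAF-1 OFF (edgeR FDR 0.739) and -0.44 in HOXA9 OFF (edgeR FDR 0.206). With 2 libraries against 2, an exact permutation test of such a ratio cannot pass the threshold.

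Within 100 kb of a member the annotation lists 18 other genes, of which 13 had at most 3 counts in every library. The other 5 were tested and 0 were called in any of the 3 comparisons by edgeR. For reference, the share of all 12460 genes that passed was 0.0321% for CAF-1 OFF versus control. It was 22% for HOXA9 OFF versus control and 22.1% between the induced states. A set of 5 genes is too small to tell 0 calls apart from these shares. These 5 include Ilf2 at 213 and 216 CPM, 2500003M10Rik at 196 and 199.7 CPM and Snapin at 37.3 and 35.0 CPM in control. Both U1 and U6 are among these 5, and as each symbol stands for many loci their counts cannot be placed here. S100a8 and S100a9, which rose, are flanked by S100a7a, with no count in any library, and Pglyrp4, at or below 3 counts (all named after their values were seen).

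For each gene, the 3 genes with the most similar profile were taken by the Euclidean distance of log2 CPM, centered on the mean of the 6 libraries, among 9614 genes. S100a8 and S100a9 were nearest to each other (0.40), followed for S100a8 by the NADPH oxidase gene Cybb (1.24) and for S100a9 by the transglutaminase gene Tgm2 (1.20). S100a4 was nearest to Slc37a2 (0.97), then Klf4 (1.64) and Cd28 (1.69). Slc37a2 stood at 0.943 and 2.26 CPM in control, 0.468 and 0.962 CPM in CAF-1 OFF, and 7.96 and 25.04 CPM in HOXA9 OFF, with a higher second library in each group, as for S100a4. S100a6 was nearest to Mir5115 (0.43), S100a11 to Ggh (0.09), S100a13 to Pqlc1 (0.14), S100a1 to Tap2 (0.14) and S100a10 to Myo1c (0.09). These distances describe 6 libraries and are not a test.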

How the data were processed

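Bulk RNA-seq libraries of iGMPs were prepared by the authors with a directional kit, aligned to mouse mm9 with STAR and counted with HTSeq-count. For each library the deposited file gave unnormalized whole-number counts by gene symbol. The annotation and strand setting of the counting were not given in the sources used here, and 97.1% of the symbols were found in the GENCODE vM1 annotation of NCBIM37. The 5 tally lines that name no gene, 50.21% to 53.91% of all entries and mostly alignments to several places, were left out of library sizes. Library sizes ran from 16773560 to 25170898 counts.

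The analysis used edgeR 4.0.16 under R 4.3.3. Genes were kept by filterByExpr (12460 of 34199), library sizes were scaled by TMM, and the quasi-likelihood fit took all 6 libraries, with a mean for every group. FDR values were adjusted over all genes tested, and standard errors were derived from the F statistic. On simulated counts the share of false calls lay above the nominal level, so calls close to the threshold, such as S100a6 and S100a4 in HOXA9 OFF against control, are less certain. Groups and replicate numbers came from the sample titles. The methods of the study gave edgeR and the cutoffs of 1.5-fold and an FDR under 0.05. Replicate numbers were shared by the groups, but no source says that they mark a shared clone or day, so no block was used. Exon lengths were the union of annotated exons.

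The members and gene lists were chosen with earlier results of these data known. Named genes were all members, Chaf1b, Anxa1 and Anxa2, partners called in HOXA9 OFF against control, the 3 largest called changes of the neutrophil list, called neighbors, paralogs above 3 counts, and the 3 most similar genes by profile. The marker genes Mpo, Cd3e, Cd3g, Mmp8, Mmp9, Cx3cr1, Csf1r and Ccr2, the receptor genes Tlr4 and Ager, and the paralogs at or below 3 counts, Pglyrp4, Ilf2, Snapin, 2500003M10Rik, U1 and U6 fall outside this rule and were named after their values were seen. Alternatives covered other scaling, tests (DESeq2 1.42.0, edgeR exact test), filters, cutoffs, the 4 libraries compared, the replicate block and each library left out in turn.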

Additional observations from a re-analysis of the deposited data

How the results depend on the processing

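Each comparison was repeated under other settings. In CAF-1 OFF against control, where 0 of 8 S100 genes were called, the count went to 2 with the DESeq2 Wald test, 3 with no filter, 2 with the exact test of edgeR and 1 with the 4 libraries compared, and 2 with a block of crossed replicate numbers, which was added after the data were seen. These settings called 1.63%, 1.9%, 1.89%, 0.0742% and 0.57% of all genes, in the same order. It ran from 0 to 2 when 1 library was left out, and was 2 without either HOXA9 OFF library. In HOXA9 OFF against control the 6 calls became 3 at 2-fold and an FDR under 0.01 (7.92% of all genes), and ran from 3 (without control replicate 1) to 6 when 1 library was left out. Between the induced states the 5 calls became 3 at 2-fold and an FDR under 0.01 (7.61% of all genes), were 6 (with S100a6 added) by the DESeq2 Wald test, by the exact test of edgeR and with no filter, and ran from 4 to 5 when 1 library was left out. Fits without a library leave 1 group with a lone library, which is assumed to vary like the other groups. Of 344 values of single genes under alternatives, 307 kept direction and call, 17 passed the threshold only under the alternative, 13 passed it only in the analysis reported, and 7 changed sign. The sign changes were those of uncalled genes. In CAF-1 OFF against control they were S100a1 (-0.34 without CAF-1 OFF replicate 1 and -0.15 without control replicate 1), S100a6 (-0.28 and -0.19 without the same libraries) and S100a13 (-0.034 without CAF-1 OFF replicate 1). Over the fits without a library, the highest values of these genes there were 0.39, 0.80 and 0.28. In HOXA9 OFF against control it was S100a10 (0.14 without control replicate 2 and 0.16 without HOXA9 OFF replicate 1), with a lowest value of -0.24.

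With the replicate block the members called were 0, 5 and 5 in the 3 comparisons in the order above, and S100a6 lost its call in HOXA9 OFF. Of all genes, 0.0161%, 21.5% and 21.5% were called with this block, in the same order. The same-numbered deviations correlated at -0.178 for CAF-1 OFF and control, 0.0329 for CAF-1 OFF and HOXA9 OFF and 0.456 for control and HOXA9 OFF, so same-numbered libraries deviated together only for control and HOXA9 OFF. As this did not hold for every pair of groups and no source ties the numbers to a clone or day, no pairing was assumed. S100a4 rests on as few as 7 counts in a CAF-1 OFF library.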
